A study of Mus musculus with 8 samples.

Results

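The transcripts of 5 genes that handle the amino acid tryptophan were followed in bone marrow-derived dendritic cells (BMDCs) of the mouse: *Ido1*, *Kmo*, *Kynu*, *Haao* and *Wars*. They are 5 of the 47937 genes listed in the count tables, and they were chosen by name from these same libraries after their levels in the 4 groups had been seen. Their own differences are therefore given as a description, without a p-value, and tests are reported for other genes of the pathway.

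BMDCs were grown from bone marrow with 20 ng/ml GM-CSF for 8 days. They came from adult C57BL6/J mice, older than 8 weeks. 3xGrk-/- cells carried Vav-iCre, Grk2 fl/fl, Grk3-/- and Grk6 fl/fl, so that *Grk2* and *Grk6* were removed by a Cre active in all blood lineages from the progenitor stage onwards and *Grk3* was missing throughout the animal. WT controls lacked Cre. Cells of both genotypes were left unstimulated or received 20 ng/ml LPS, a bacterial cell wall product that matures dendritic cells, for 1 day. Each of the 4 groups holds 2 libraries, called replicate 1 and replicate 2. The study's methods speak of technical triplicates of the RNA extraction, whereas the labels give 2 libraries per group. Nothing in the sources used here says that the libraries of a group came from separate mice or cultures. P-values and SEs thus measure only the spread between these libraries, which may be technical. With 2 against 2 libraries, an exact two-sided permutation test of a single gene cannot go below 0.333. A GM-CSF culture mixes dendritic cells, macrophages and other myeloid cells, and in such a bulk sample fewer cells of a type and less RNA per cell cannot be told apart.

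Most tryptophan that a cell does not build into protein is broken down along the kynurenine pathway. IDO1 opens the ring of tryptophan, a formamidase releases kynurenine, KMO adds a hydroxyl group to give 3-hydroxykynurenine, KYNU cuts off the side chain to give 3-hydroxyanthranilate, and HAAO opens the ring again, which leads by way of quinolinate to NAD. WARS, the cytosolic tryptophanyl-tRNA synthetase, loads the same amino acid on its tRNA for protein synthesis. In dendritic cells IDO1 is known for restraining T cells by using up tryptophan and by producing kynurenine, and both *Ido1* and *Wars* are classical interferon-gamma target genes.

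Of the 5 genes, *Kmo* and *Haao* have a promoter in the RefSeq table used here (GRCm38.p6, 250 bases before to 50 after the start). These stretches are shown because both transcripts were low in 3xGrk-/- cells after LPS, and the capitals mark the only matches found among 6 motifs searched on both strands.
Kmo, chr1:175632079-175632108, plus strand, PU.1 motif in capitals: aacacttatcaGAGGAAGTgagctttgacc
Haao, chr17:83846909-83846938, minus strand, xenobiotic response core in capitals: tccctgctccgGCGTGtgtgcaggggcagg
The starts are those of the RefSeq table. They lie inside the longer GENCODE gene spans given below, so that the bases shown lie within the spans of other annotated transcripts, and which start these cells use was not determined. PU.1 is the myeloid master regulator that dendritic cells and macrophages share, and its motif, searched as GAGGAAGT, lies 103 to 96 bases before the RefSeq start of *Kmo*. The same letters occur in 3.20% of the 32851 promoters. The core GCGTG, to which the aryl hydrocarbon receptor binds, lies 137 to 133 bases before the RefSeq start of *Haao* and occurs in 32.4% of all promoters, so that its presence there is common. Neither window holds the interferon response motif GAAANNGAA (8.56% of promoters), the interferon-gamma activated site TTCNNNGAA (8.30%), the AP-1 motif TGANTCA (7.81%) or the cAMP response element TGACGTCA (1.79%). *Ido1*, *Kynu* and *Wars* were not part of this search.

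Between 4713305 and 6933358 reads per library fell on genes. Levels are CPM, read counts scaled to the library size, with one TMM scaling over the 8 libraries. Genotype folds (log2 fold change ± SE, 3xGrk-/- over WT) come from an edgeR quasi-likelihood fit within each stimulation, and LPS responses from one fit of all libraries. A gene was called at an adjusted p under 0.05. The targeted kinases were lower in the 3xGrk-/- libraries: *Grk2* stood at 46.4% of WT without and 27.1% with LPS, *Grk6* at 43.8% and 34.5%, and *Grk3* at 78.1% and 75.0%. Reads on the deleted exons were not examined. Reads on the ribosomal RNA-like gene *Gm42418* numbered 149727 in replicate 2 of LPS-stimulated 3xGrk-/- cells and 17470 to 41199 elsewhere.

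**Figure D1:**
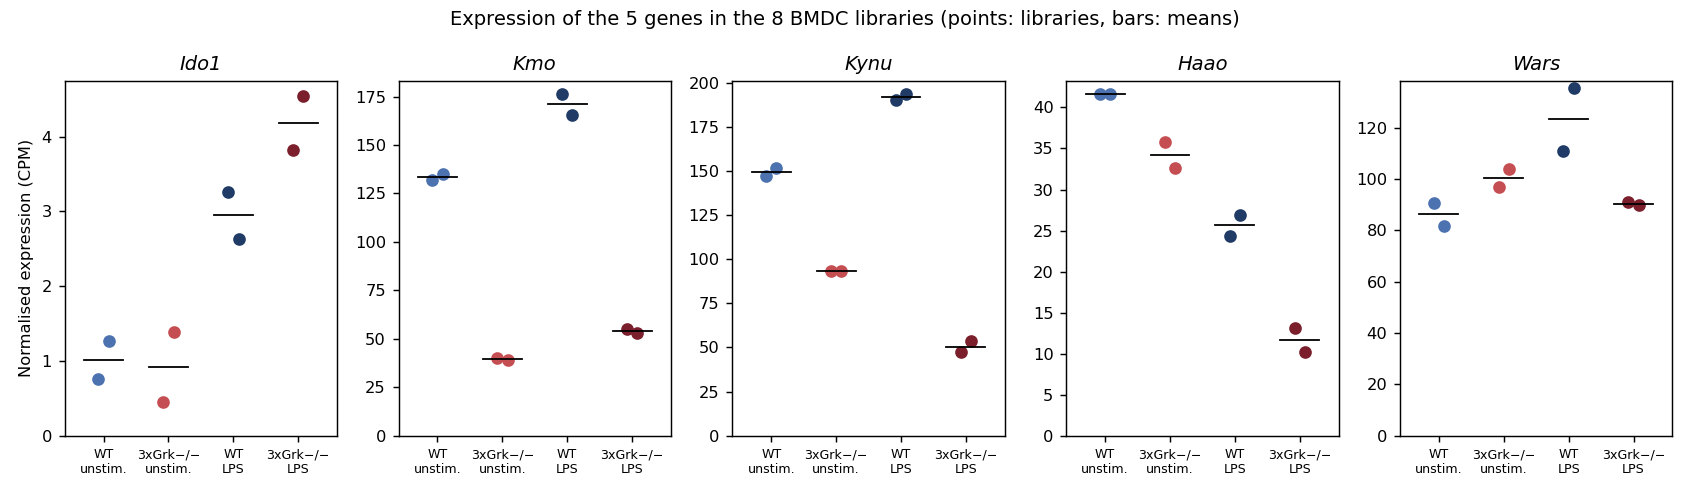
Normalised expression in CPM of *Ido1*, *Kmo*, *Kynu*, *Haao* and *Wars* in each of the 8 libraries (points) with the group mean (bars), for WT and 3xGrk-/- BMDCs without and with LPS; each panel has its own axis, starting at 0. *Kmo* lies between 39.2 and 55.1 CPM in all 3xGrk-/- libraries and between 132 and 176 CPM in all WT libraries.

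*Kmo*, the flavin-dependent hydroxylase that commits kynurenine to the NAD branch, was far lower in 3xGrk-/- cells under both conditions. Its levels were 132 and 135 CPM in unstimulated WT libraries and 40.1 and 39.2 CPM in unstimulated 3xGrk-/- libraries. With LPS they were 176 and 166 CPM in WT and 55.1 and 53.2 CPM in 3xGrk-/- cells. The lowest WT library thus lay above the highest 3xGrk-/- library, and the order of the groups was WT with LPS, WT unstimulated, 3xGrk-/- with LPS, 3xGrk-/- unstimulated, with no overlap between neighbours. The 3xGrk-/- cells held 29.7% of the WT level without LPS (log2 fold change -1.75 ± 0.0751) and 31.7% with LPS (-1.66 ± 0.0798). LPS raised *Kmo* to 128% of the unstimulated level in WT and to 136% in 3xGrk-/- cells, or by 0.35 and 0.45 on the log2 scale. With libraries scaled by their size only these responses were 0.14 and 0.23. The difference between the genotype effects was 0.09 ± 0.108 on the log2 scale. *Kmo* spans chr1:175620381-175662116 (GRCm38, plus strand), where it overlaps *Fh1* on the other strand without sharing exon bases.

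*Kynu*, which encodes kynureninase, the enzyme after KMO, behaved differently. Unstimulated WT libraries held 147 and 152 CPM and unstimulated 3xGrk-/- libraries 93.2 and 93.2 CPM. After LPS the WT libraries reached 190 and 194 CPM, whereas the 3xGrk-/- libraries dropped to 47.3 and 53.7 CPM. LPS thus moved the transcript in opposite directions in the genotypes, up to 128% of the unstimulated level in WT and down to 54.1% in 3xGrk-/- cells. The rise in WT was 0.36 on the log2 scale, and 0.14 when libraries were scaled by their size only. The genotype difference was -0.68 ± 0.0600 without LPS and -1.92 ± 0.0816 with LPS, which leaves 62.4% and 26.3% of the WT level. The 4 groups did not overlap, and the change of the genotype effect with LPS was -1.24 ± 0.0999. *Kynu* lies at chr2:43555329-43682715 on the plus strand.

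*Haao*, encoding the dioxygenase that makes the precursor of quinolinate, fell with LPS in both genotypes, and further in 3xGrk-/- cells. The WT libraries had 41.6 and 41.6 CPM without LPS and 24.3 and 26.9 CPM with LPS. The 3xGrk-/- libraries had 35.8 and 32.6 CPM without and 13.1 and 10.2 CPM with LPS. The groups again do not overlap, but the gap between the genotypes without LPS is small. It amounted to -0.28 ± 0.102, or 82.1% of WT, against -1.15 ± 0.159, or 45.5% of WT, with LPS. LPS lowered *Haao* to 61.5% of the unstimulated level in WT and to 34.1% in 3xGrk-/- cells, a difference of -0.87 ± 0.184 between the effects. The gene spans chr17:83831156-83847963 on the minus strand.

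*Wars* showed the smallest genotype differences of the 4 well expressed genes. Without LPS the WT libraries had 90.7 and 81.8 CPM and the 3xGrk-/- libraries 97.1 and 104 CPM. LPS brought the WT libraries to 111 and 136 CPM, and left the 3xGrk-/- libraries at 90.9 and 89.8 CPM. The 2 WT libraries with LPS differ from each other more than those of any other group, and the LPS-stimulated 3xGrk-/- libraries lie within or next to the range of unstimulated WT. The sign of the genotype difference turned from 0.23 ± 0.0672 without LPS to -0.45 ± 0.0869 with LPS, that is from 117% to 73.3% of WT. The difference with LPS was -0.58 without WT replicate 1 and -0.29 without WT replicate 2. *Wars* lies at chr12:108860030-108894174 on the minus strand and overlaps *Wdr25* on the other strand without shared exon bases.

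*Ido1*, the entry enzyme, was barely expressed. The unstimulated libraries held 4 and 9 reads in WT and 3 and 8 reads in 3xGrk-/- cells, or 0.449 to 1.39 CPM, and the genotypes overlapped. LPS-stimulated libraries held 18 and 17 reads in WT and 21 and 28 reads in 3xGrk-/- cells, or 3.27 and 2.63 against 3.82 and 4.54 CPM. All 4 LPS-stimulated libraries lay above all 4 unstimulated ones. The rise with LPS was 1.46 ± 0.462 in WT and 2.22 ± 0.444 in 3xGrk-/- cells on the log2 scale. The latter was 1.58 without unstimulated 3xGrk-/- replicate 1 and 3.17 without unstimulated 3xGrk-/- replicate 2. The genotype difference with LPS was 0.52 ± 0.320, and without LPS the gene did not reach the count needed for a fit. *Ido1* lies at chr8:24584136-24597009 on the minus strand, next to *Ido2*.

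**Figure D2:**
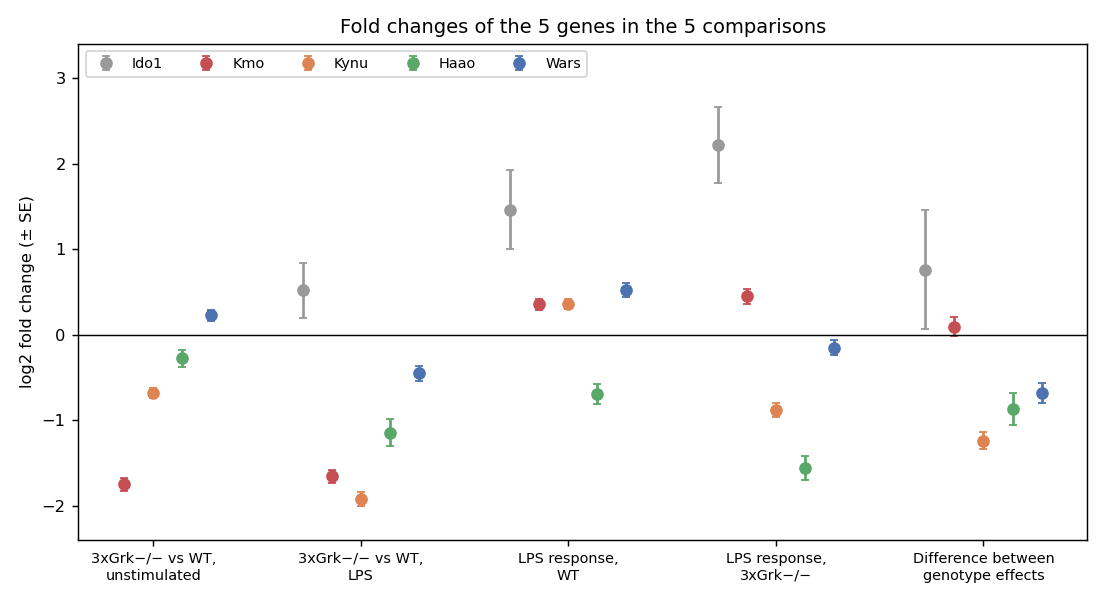
log2 fold change ± SE (y axis) of the 5 genes in the genotype comparison without and with LPS, in the LPS response of WT and of 3xGrk-/- cells, and in the difference between the genotype effects (with LPS minus without). *Kmo* keeps about the same genotype difference (-1.75 and -1.66), whereas *Kynu* goes from -0.68 to -1.92; *Ido1* without LPS is missing because its counts were too low.

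In the unstimulated comparison 4 of the 5 genes passed the filter on low counts. *Wars* was called higher and *Kmo*, *Kynu* and *Haao* lower, where 22.1% of the 12000 genes tested were called higher and 22.7% lower. The libraries of the genotypes did not overlap for any of the 4 genes tested, against 69.1% of all genes tested, and they overlapped for *Ido1*, which was not tested. With LPS, 4 of 5 were called, each of them lower, where 24.0% of 11830 genes were called lower and 24.7% higher. All 5 had no overlap between the genotypes, against 72.6% of the genes tested. In WT cells LPS raised *Ido1*, *Kmo*, *Kynu* and *Wars* and lowered *Haao*, while 29.5% of 12541 genes were called higher and 30.8% lower. In 3xGrk-/- cells LPS raised *Ido1* and *Kmo* and lowered *Kynu* and *Haao*, while 28.0% of genes were called higher and 27.4% lower. The genotype effect shifted downwards with LPS for *Kynu*, *Haao* and *Wars* and was not called for *Ido1* and *Kmo*, where 16.5% of all genes shifted upwards and 16.0% downwards. As the genes were chosen from these levels, nothing about them is read from these counts.

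Several of the smaller differences rest on single libraries or on the tool. Without LPS the *Haao* difference was no longer called by edgeR's quasi-likelihood test without 3xGrk-/- replicate 2 (-0.22), WT replicate 1 (-0.28) or WT replicate 2 (-0.28), and the *Wars* difference without 3xGrk-/- replicate 2 (0.18) or WT replicate 2 (0.14). DESeq2 called neither, and edgeR did not call *Haao* there with no filter on low counts (-0.26). The response of *Ido1* in WT cells was not called by DESeq2 (1.52) or, at 1.19, by edgeR without unstimulated WT replicate 1. The response of *Wars* in 3xGrk-/- cells, at -0.15 ± 0.0839 not called, was called at -0.15 when either WT library with LPS was left out of the fit. When libraries were scaled by their size only, the median gene stood at -0.09 in both genotype comparisons and at -0.23 in both LPS responses, *Wars* without LPS (0.14) and *Kmo* in WT with LPS (0.14) were no longer called, the response of *Wars* in WT was 0.31 and still called, and *Wars* in 3xGrk-/- cells with LPS was called lower (-0.37).

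Per kilobase of exon, on which genes can be compared with each other, *Kmo* ranked highest in unstimulated WT cells at a mean of 28.3 CPM per kb, followed by *Wars* (25.0) and *Kynu* (24.3), whose libraries overlap, *Haao* (8.89) and *Ido1* (0.555). In unstimulated 3xGrk-/- cells *Wars* came first at 29.2 CPM per kb, ahead of *Kynu* at 15.2, *Kmo* at 8.40, *Haao* at 7.31 and *Ido1* at 0.504, with no overlap between neighbours. WT cells with LPS again had *Kmo* (36.2) and *Wars* (35.8) at the top with overlapping libraries, then *Kynu* (31.2), *Haao* (5.47) and *Ido1* (1.62). In 3xGrk-/- cells with LPS the order was *Wars* (26.2), *Kmo* (11.5), *Kynu* (8.21), *Haao* (2.49) and *Ido1* (2.29), and here *Haao* and *Ido1* overlap. The exon length counts every annotated exon of a gene, and the isoform present was not determined.

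The genes whose centred log2(CPM + 1) values over the 8 libraries were most like those of each transcript, among 9341 genes with a mean log2 CPM of at least 3, were named by the root mean square difference. For *Kmo* they were *Mfsd2a* (0.169), a lipid transporter, *Lipg* (0.195), endothelial lipase, and *Napsa* (0.265), an aspartic protease of dendritic cells. *Mfsd2a* had mean levels of 15.6 and 4.36 CPM without and 19.4 and 5.53 CPM with LPS in WT and 3xGrk-/- cells, respectively. For *Kynu* they were *Lima1* (0.117), *Nabp1* (0.141) and *Stbd1* (0.143), and for *Haao* they were *Jup* (0.0842), which encodes the junction protein plakoglobin, *Glipr1* (0.112) and the ribosomal protein gene *Rpl12* (0.115). *Wars* was closest to *Fbh1* (0.0497), *Cap1* (0.0673) and *Diaph1* (0.0807), and *Ido1* to *A230050P20Rik* (0.183), *Spty2d1* (0.201) and *Bcl3* (0.201). The level of *Ido1* itself lies under the limit of 3, where the added 1 shrinks its changes. The points share libraries and the 4 group means, and no p is attached to such likeness.

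Of the 12 other enzymes of the kynurenine pathway 6 were tested, and 4 of them (*Got2*, *Ido2*, *Kyat3* and *Gcdh*) were called in at least 1 comparison. For the counts in this and the following lists, the shares of all genes called in each comparison are those given above. *Tdo2*, *Aadat*, *Acmsd*, *Dhtkd1* and *Aldh8a1* did not exceed 3 reads in any library, and *Qprt*, which turns quinolinate into an NAD precursor, had 2 and 8 reads in unstimulated WT, 0 and 2 reads in unstimulated 3xGrk-/- and 0 reads in all LPS-stimulated libraries. Without LPS, 2 of the 5 tested genes were called by edgeR's quasi-likelihood test, both of them lower: *Got2*, a mitochondrial aminotransferase that can form kynurenic acid, at -0.32 ± 0.0556 (adjusted p = 3.5e-08), and the kynurenine aminotransferase *Kyat3* at -0.99 ± 0.255 (adjusted p = 0.00038). DESeq2 did not call *Kyat3* there. With LPS, 1 of 6 tested genes was called, and it was higher. This was *Ido2*, the neighbour and relative of *Ido1*, with 8 and 9 reads in WT and 31 and 26 reads in 3xGrk-/- libraries, a difference of 1.77 ± 0.366 (edgeR quasi-likelihood, adjusted p = 0.00037).
The genotype effect of *Kyat3* and *Got2* shifted upwards with LPS, by 1.12 ± 0.360 (adjusted p = 0.017) and 0.38 ± 0.105 (adjusted p = 0.0057) in the same edgeR fit. Neither shift was called by DESeq2, that of *Kyat3* was lost (0.95 to 1.08) without unstimulated WT replicate 2, unstimulated 3xGrk-/- replicate 1 or 3xGrk-/- replicate 1 with LPS, and that of *Got2* (0.30) without unstimulated 3xGrk-/- replicate 2. LPS lowered *Got2* in WT (-1.13 ± 0.0727) and in 3xGrk-/- cells (-0.75 ± 0.0742). *Kyat3* and *Gcdh*, which acts in the oxidative branch, were called lower with LPS in WT at -0.60 ± 0.236 and -0.43 ± 0.151, calls that edgeR lost without WT replicate 1 with LPS (-0.56 and -0.37) or unstimulated WT replicate 2 (-0.54 and -0.44), and that of *Kyat3* also without either other WT library (-0.63 and -0.65). *Ido2* rose with LPS in 3xGrk-/- cells (2.1 ± 0.393). *Afmid*, the formamidase between IDO1 and KMO, and the aminotransferase *Kyat1* were tested and not called in any comparison, with 28 to 54 and 10 to 21 reads per library.

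Tryptophan enters the cell through amino acid transporters shared with other large neutral amino acids. Of 7 transporter genes, 5 were tested, and without LPS all 5 were called higher in 3xGrk-/- cells (median 0.73 on the log2 scale, against -0.0017 for all genes). With LPS 4 were higher and 1 was lower. The exception was *Slc7a5*, the light chain of the large neutral amino acid transporter LAT1, which carries tryptophan in and kynurenine out. Without LPS it had 177 and 163 CPM in WT and 232 and 228 CPM in 3xGrk-/- libraries. With LPS it had 245 and 249 CPM in WT and 81.8 and 78.6 CPM in 3xGrk-/- libraries, the lowest of the 4 groups. The genotype difference thus turned from 0.44 ± 0.0490 to -1.63 ± 0.0707 (edgeR quasi-likelihood, adjusted p = 2.1e-18 and 4.5e-14), and the shift of -2.07 ± 0.0849 was called as well (adjusted p = 4.0e-17). As with *Kynu*, LPS raised *Slc7a5* in WT (0.54 ± 0.0570) and lowered it in 3xGrk-/- cells (-1.52 ± 0.0627). *Slc3a2*, the heavy chain with which *Slc7a5* pairs, was higher in 3xGrk-/- cells under both conditions (0.60 and 0.82), as was *Slc36a4* (0.73 and 0.80). *Slc7a8*, the light chain of the related transporter LAT2, had 31.5 and 25.5 CPM in unstimulated WT against 80.3 and 73.5 CPM in unstimulated 3xGrk-/- libraries, and a mean of 28.5 CPM against 281 and 283 CPM with LPS. Its genotype difference was 1.46 ± 0.0922 without and 3.30 ± 0.0826 with LPS. *Slc16a10*, an exporter of aromatic amino acids, differed by 1.54 ± 0.178 and 2.72 ± 0.182. The upward shifts of *Slc7a8* (1.85) and *Slc16a10* (1.18) with LPS were called, whereas that of *Slc36a4* was 0.07 ± 0.134.

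**Figure D3:**
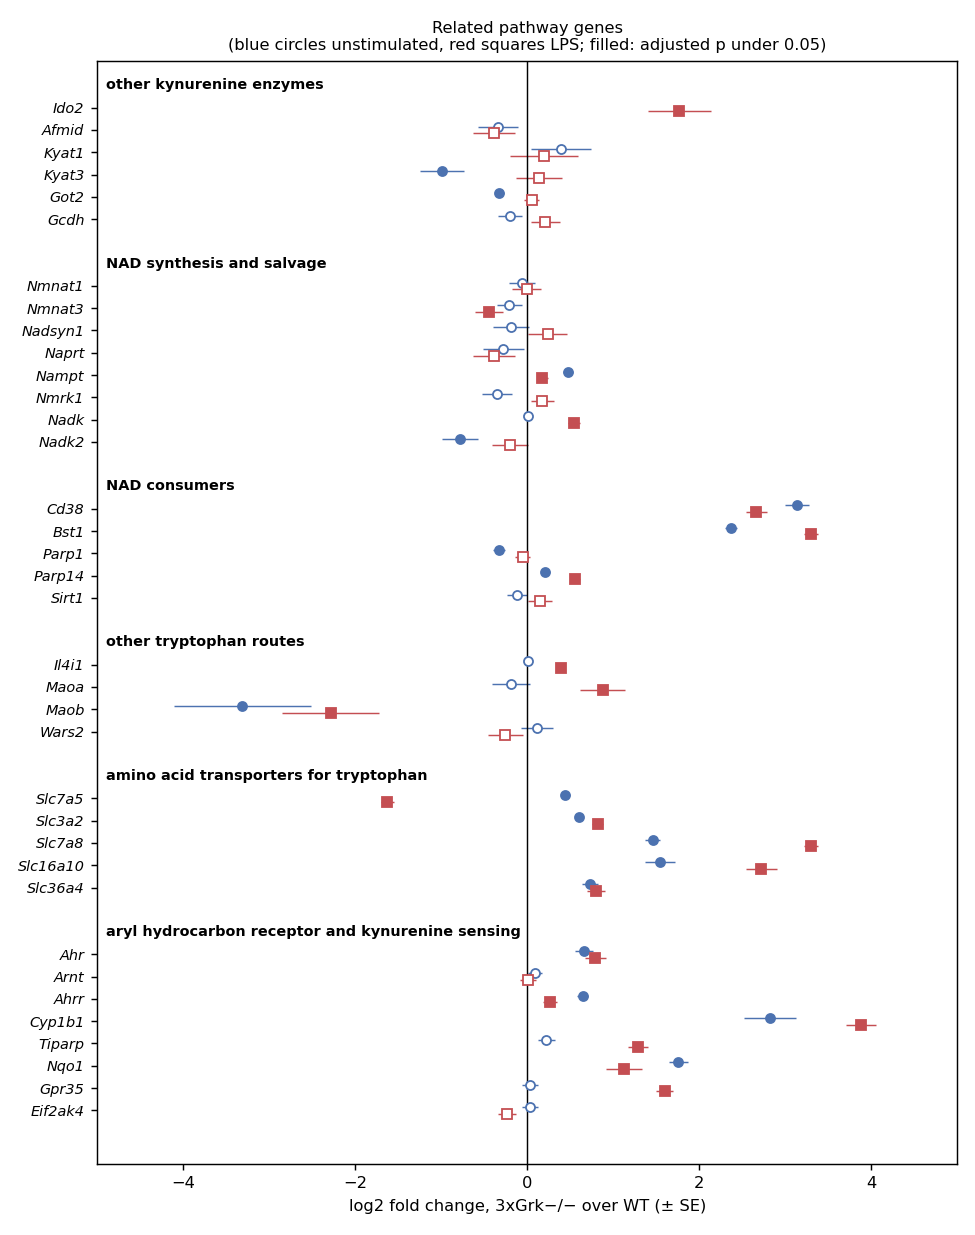
log2 fold change ± SE of 3xGrk-/- over WT (x axis) for each tested gene of 6 lists around the pathway (y axis), without LPS (circles) and with LPS (squares); filled symbols had an adjusted p under 0.05 by edgeR. *Slc7a5* changes side, from 0.44 to -1.63, while the other 4 tested transporters stay to the right.

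The genes of NAD synthesis and salvage stand at the end of the route. Of 11 genes 8 were tested. Without LPS 1 was higher and 1 lower, and with LPS 2 were higher and 1 lower, with list medians of -0.20 and 0.08 (-0.29 and -0.0047 when scaled by library size only). *Nampt*, which recycles nicotinamide and is the main source of NAD in most cells, had 106 and 102 CPM in WT and 145 and 142 CPM in 3xGrk-/- libraries without LPS (0.47 ± 0.0592, adjusted p = 1.5e-14). With LPS it reached 195 and 185 CPM in WT and 216 and 213 CPM in 3xGrk-/- libraries (0.18 ± 0.0652, adjusted p = 0.031, edgeR quasi-likelihood). This second *Nampt* difference was not called by DESeq2 (0.19), by edgeR with libraries scaled by size only (0.09), which left 1 gene of the list higher with LPS, or by edgeR without either 3xGrk-/- library (0.18 and 0.20). The NAD kinase *Nadk* was higher with LPS (0.54 ± 0.0701), its mitochondrial relative *Nadk2* lower without LPS (-0.78 ± 0.213, not called by DESeq2), and *Nmnat3* lower with LPS (-0.44 ± 0.161, lost by DESeq2 and, at -0.40 to -0.46, by edgeR without WT replicate 1 or either 3xGrk-/- library). LPS raised *Nmrk1*, the nicotinamide riboside kinase, in WT (0.83 ± 0.146) and in 3xGrk-/- cells (1.35 ± 0.150).

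Among 6 NAD-consuming enzymes 5 were tested, and 3 were higher in 3xGrk-/- cells in both comparisons. *Cd38* and *Bst1*, neighbouring genes for cell surface enzymes that split NAD, differed most. *Cd38* had 6.69 and 6.45 CPM in unstimulated WT against 55.0 and 61.0 CPM in unstimulated 3xGrk-/- libraries (3.14 ± 0.140, adjusted p = 2.8e-108), and 21.8 and 15.3 against 116 and 117 CPM with LPS (2.66 ± 0.120, adjusted p = 8.3e-14, edgeR quasi-likelihood). *Bst1* differed by 2.37 ± 0.0717 without and 3.30 ± 0.0823 with LPS. *Parp14*, an interferon-induced mono-ADP-ribosyltransferase, was higher by 0.21 ± 0.0507 and 0.56 ± 0.0563. *Parp1* was lower without LPS (-0.33 ± 0.0705, not called by DESeq2).

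The enzymes that draw tryptophan into other routes were 9 genes, of which 4 were tested. *Il4i1*, a secreted amino acid oxidase that also yields ligands of the aryl hydrocarbon receptor, was by far the most abundant of them, with 842 to 909 CPM in all libraries but the 3xGrk-/- ones with LPS, which held 1205 and 1132 CPM. Its genotype difference was 0.00 ± 0.0348 without LPS and 0.39 ± 0.0553 with LPS (edgeR quasi-likelihood, adjusted p = 5.8e-06). *Maob* had 10 to 13 reads in WT and 1 to 3 reads in 3xGrk-/- libraries, and was called lower without and with LPS by edgeR but not by DESeq2. Without 3xGrk-/- replicate 1 the LPS difference of *Maob* was -2.1 and not called. *Maoa* was higher with LPS (0.88 ± 0.259), but not according to DESeq2 or, at 0.81, without 3xGrk-/- replicate 1. The serotonin and melatonin genes *Tph1*, *Tph2*, *Ddc*, *Aanat* and *Asmt* had at most 3 reads in any library.

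Kynurenine and kynurenic acid are sensed by the aryl hydrocarbon receptor and by GPR35. Of 9 genes of this group 8 were tested, and 4 of them were called without LPS and 6 with LPS, each of them higher in 3xGrk-/- cells. Scaled by library size only, 5 were higher and 1 was lower with LPS. *Cyp1b1*, a receptor target, had 0.573 and 1.96 CPM in unstimulated WT against 9.87 and 9.72 CPM in unstimulated 3xGrk-/- libraries, and 2.90 and 3.56 against 46.0 and 49.9 CPM with LPS. The differences were 2.82 ± 0.303 and 3.87 ± 0.175 (edgeR quasi-likelihood, adjusted p = 1.1e-19 and 8.2e-14). *Cyp1a1*, the classical target of the same receptor, stayed at or under 3 reads in every library. *Nqo1* was higher by 1.76 ± 0.114 and 1.13 ± 0.209, and *Ahr* itself by 0.66 ± 0.105 and 0.79 ± 0.125. *Gpr35* and *Tiparp* differed only with LPS by this threshold, at 1.60 ± 0.0993 and 1.29 ± 0.118, and the shift against the unstimulated difference was called for both (1.56 and 1.06). The shift of *Ahrr*, which was higher in 3xGrk-/- cells under both conditions, was called in the other direction, downward. Scaled by library size only, 2 shifts of this group were called upward and 2 downward.

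Of 11 genes of the signalling that induces *Ido1*, among them the feedback inhibitor *Socs3*, 10 were tested, and *Ifng* had no read in any library. LPS raised 9 of the 10 in each genotype, and 8 in WT and 6 in 3xGrk-/- cells when libraries were scaled by size only. Without LPS 6 were higher and 2 lower in 3xGrk-/- cells, and with LPS 4 were higher and 2 lower. *Irf8*, a factor of dendritic cell development that also drives *Ido1*, had 278 and 294 CPM in WT and 507 and 507 CPM in 3xGrk-/- libraries without LPS (0.82 ± 0.0417), but 1450 and 1498 CPM against 999 and 963 CPM with LPS (-0.59 ± 0.0532), and the shift of -1.41 ± 0.0670 was called (edgeR quasi-likelihood, adjusted p = 1.0e-15). *Irf1* was higher in 3xGrk-/- cells under both conditions (0.45 and 0.48), and *Socs3*, which restrains cytokine signalling and marks IDO1 for degradation, likewise (0.86 and 1.02).

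*Wars* was set beside the other 19 cytosolic aminoacyl-tRNA synthetases, which load the remaining amino acids. LPS lowered 14 of the 19 in WT cells and raised 1, with a median of -0.43, whereas *Wars* went to 0.53 and none of the 19 lay above it, the highest being *Aars* at 0.29. In 3xGrk-/- cells LPS lowered 11 and raised 2 of the 19 (median -0.29), and *Wars* at -0.15 lay among them, with 6 above and 13 below. The genotype difference without LPS was called higher for 1 and lower for 8 of the 19 (median -0.14), and *Wars* at 0.23 had 18 below it. With LPS 1 was higher and 4 were lower (median -0.04), and *Wars* at -0.45 had 18 above it. *Vars* was the exception below, at -0.63 ± 0.118, and it also fell most with LPS, by 1.56 in WT and by 1.63 in 3xGrk-/- cells on the log2 scale. Of the shifts of the genotype effect with LPS 1 of 19 was called, that of *Aars* (0.47 ± 0.0874, edgeR quasi-likelihood, adjusted p = 9.7e-05). No synthetase had a shift as low as that of *Wars* (-0.68 ± 0.117), the lowest other value being -0.23. Scaled by library size only, the synthetases called lower were 16 in the LPS response of WT, 17 in that of 3xGrk-/- cells, and 13 and 6 in the genotype comparisons without and with LPS. With this scaling the edgeR calls of *Aars* (0.07) in the LPS response of WT and of the 1 synthetase higher without LPS were lost, and 1 synthetase was still called higher in the LPS response of 3xGrk-/- cells. As *Wars* was chosen from these values, its place among the synthetases is a description.

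**Figure D4:**
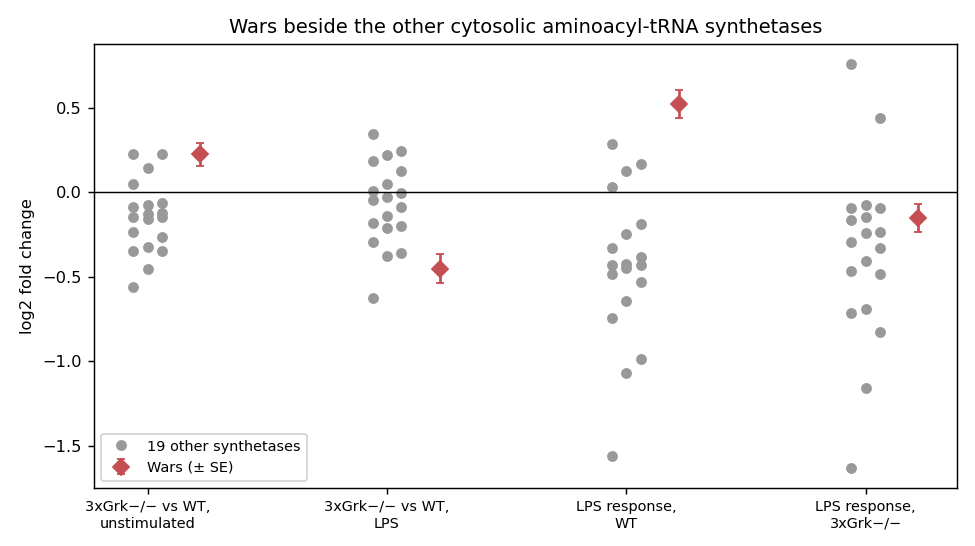
log2 fold change (y axis) of *Wars* (diamond, ± SE) and of the 19 other cytosolic aminoacyl-tRNA synthetases (grey points) in the genotype comparisons without and with LPS and in the LPS responses of WT and 3xGrk-/- cells. *Wars* lies above all others in the LPS response of WT (0.53) and at -0.15, among the others, in that of 3xGrk-/- cells.

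Over all 84 related genes together, 64 were tested without LPS, of which 20 were higher in 3xGrk-/- cells and 15 lower, and the median fold change was 0.01 on the log2 scale. With LPS 23 of 65 were higher, 9 were lower and the median was 0.13. The medians over all genes tested were -0.0017 and -0.0066. Of all genes tested, 22.1% were called higher and 22.7% lower without LPS, and 24.7% and 24.0% with LPS. Scaled by library size only, the related genes split into 19 higher and 21 lower without LPS, with a median of -0.08, and into 21 higher and 12 lower with LPS.

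Summed levels of cell type markers also differed between the groups. Summed over 9 conventional DC markers, unstimulated WT libraries had 12816 and 12791 CPM against 4915 and 4830 CPM in unstimulated 3xGrk-/- libraries, and 6323 and 6828 against 4818 and 4732 CPM with LPS. In this list 8 genes were lower and 1 was higher without LPS, and 7 lower and 1 higher with LPS. The 6 cDC1 genes summed to 720 and 721 CPM in unstimulated WT and to 80.6 to 229 CPM in the other groups, with *Xcr1* at or under 3 reads in all libraries. Without LPS *Wdfy4*, *Itgae* and *Tlr3* were lower in 3xGrk-/- cells and *Clec9a* was higher, and with LPS 2 genes were tested, of which *Tlr3* was higher and *Wdfy4* lower. The 6 mature DC genes summed to 11024 and 11024 CPM against 17179 and 17094 CPM without LPS, where 5 were higher in 3xGrk-/- cells and *Cd83* was lower. With LPS they summed to 36706 and 38477 against 20537 and 20264 CPM, and all 6 were lower in 3xGrk-/- cells. The 10 macrophage genes gave 1045 and 1018 against 1555 and 1500 CPM without LPS, with 5 higher and 4 lower. With LPS they gave 407 and 413 against 2787 and 2847 CPM, and all 10 were higher in 3xGrk-/- cells.

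Many granulocyte genes were lower in 3xGrk-/- cells. The 6 eosinophil genes summed to 1083 to 1230 CPM in WT and to 62.3 to 85.4 CPM in 3xGrk-/- libraries, with 5 of 6 lower without and 6 of 6 with LPS. The 8 neutrophil genes summed to 631 and 601 against 458 and 441 CPM without and to 282 and 329 against 147 and 161 CPM with LPS, with 4 of 8 and 5 of 7 tested lower. The 6 mast cell and basophil genes summed to 42.2 and 41.3 CPM in WT against 48.8 and 53.7 CPM in 3xGrk-/- libraries without LPS. With LPS they summed to 41.9 and 44.1 against 34.9 and 35.3 CPM. Of 5 tested, 3 were lower in 3xGrk-/- cells under both conditions, and 1 was higher without LPS. The 5 plasmacytoid DC genes summed to 102 and 99.6 CPM in WT against 66.6 and 64.1 CPM in 3xGrk-/- libraries without LPS, and to 146 and 141 against 85.8 and 88.5 CPM with LPS. Both tested genes, *Pacsin1* and *Tcf4*, were lower under both conditions, with *Siglech* and *Ly6d* at or under 3 reads everywhere. The 6 lymphocyte genes gave at most 1.70 CPM, and 5 of them stayed at or under 3 reads. The 5 stromal genes gave 0.382 to 6.89 CPM except in 3xGrk-/- cells with LPS, where they gave 128 and 138 CPM and the 4 tested genes were higher than in WT. The part of these differences in the levels of *Ido1*, *Kmo*, *Kynu*, *Haao* and *Wars* was not tested.

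**Figure D5:**
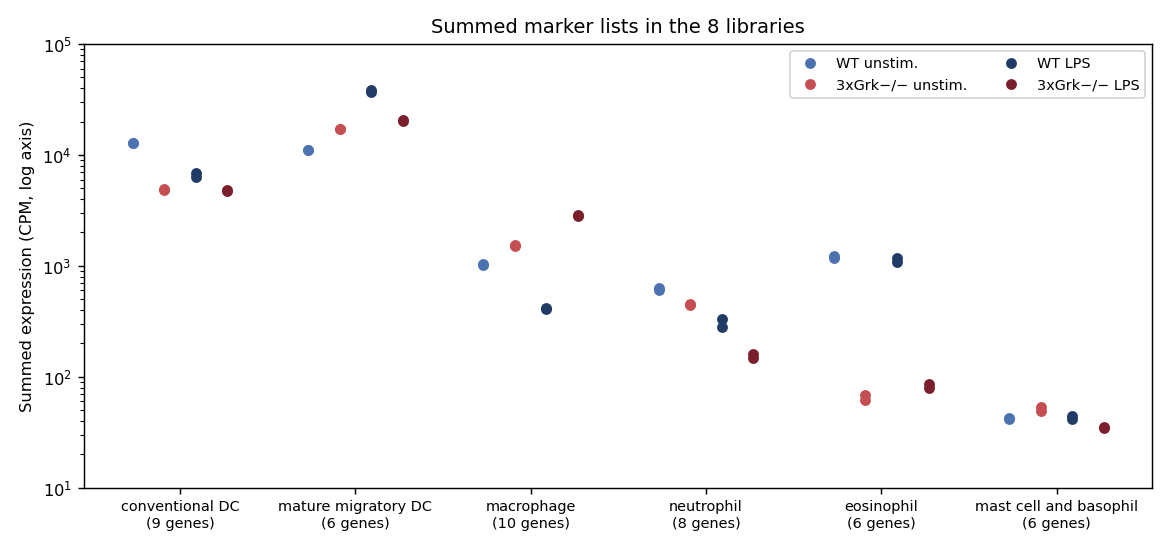
Summed CPM (y axis, log scale) of 6 marker lists in each of the 8 libraries (points, coloured by group). The conventional DC and eosinophil sums are lower in all 3xGrk-/- libraries than in all WT libraries of the same stimulation, and the macrophage sum with LPS is 2787 and 2847 CPM in 3xGrk-/- against 407 and 413 CPM in WT libraries.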

How the data were processed

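RNA from WT and 3xGrk-/- BMDCs was sequenced from stranded mRNA libraries. The authors aligned reads to mm10 with STAR 2.7.3a in snakePipes 2.1.0 and counted them with featureCounts 2.0.0. The annotation release and the strand setting are not given in the sources used here. The deposited values are raw counts of reads per gene, in 2 tables with 1 column per library; all columns were matched to samples by their labels. Gene names and coordinates came from GENCODE M21 (GRCm38), which matched 47224 of 47937 identifiers; 0.0847% of the counts lay on the rest. Genotypes were compared within each table with edgeR 4.0.16 (TMM, filterByExpr with a minimum of 10 counts, glmQLFit, glmQLFTest, Benjamini-Hochberg over all genes tested), and LPS responses and the interaction in one fit of 8 libraries, in R 4.3.3 with limma 3.58.1. The fits were tested on simulated data. The SE is the log2 fold change divided by the square root of F. CPM were computed on the TMM scale of all 8 libraries; motif searches used Python 3.11.15. The 5 genes, the lists and the marker lists were chosen with earlier results of these data known. Named were the 5 genes, all other kynurenine enzymes, the targeted kinases, the marker lists, and in each other list up to 3 genes with the largest change in a comparison or those that a count of 5 or fewer covers; 1 gene is counted in its list but not reported here by itself. The common biological coefficient of variation was 0.0306 without and 0.0573 with LPS. The 2 libraries of a group did not hold the same counts (median chi-square per gene between them 0.525 to 0.874). Whether they are repeats of the same RNA was not tested, and libraries of different groups were not compared in this way. Replicate numbers did not pair samples. DESeq2 1.42.0, other scalings and filters, a replicate block, the removal of single libraries or of *Gm42418*, one fit for all groups and a fixed spread were the alternatives.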

Additional observations from a re-analysis of the deposited data

Results flagged for a closer look

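The effect of genotype differed between unstimulated and LPS-stimulated cells, by the interaction term in edgeR's quasi-likelihood fit of all 8 libraries (adjusted p under 0.05), for the genes around the pathway named below. Of the 65 related genes tested, 15 were called upward and 8 downward by this term, where 16.5% and 16.0% of all 12541 genes were. The values are log2 differences of the genotype effect, with LPS minus without. The difference was lowest for the transporter chain *Slc7a5* (-2.07) and for *Irf8* (-1.41), and -0.29 for *Nampt*. *Nfkb2*, *Ahrr*, *Jak1*, *Ifngr2* and *Jak2* were also called downward, and their values are not given here. Smaller upward shifts were those of *Slc3a2* (0.22), *Parp14* (0.35), *Got2* (0.38), *Il4i1* (0.38), the alanyl-tRNA synthetase *Aars* (0.47), *Nadk* (0.53), *Ifngr1* (0.83), a receptor chain for interferon-gamma, and *Bst1* (0.93). Larger ones were those of *Tiparp* (1.06), *Maoa* (1.06), *Kyat3* (1.12), *Slc16a10* (1.18), *Gpr35* (1.56) and *Slc7a8* (1.85). Of the shifts given with a value, DESeq2 did not call those of *Nampt*, *Slc3a2*, *Got2*, *Kyat3* and *Maoa*. In edgeR, those of *Nampt* (-0.25) and *Maoa* (0.996) were not called without unstimulated WT replicate 2, and that of *Slc3a2* (0.17 to 0.25) was not called without replicate 1 of any group or without replicate 2 of either 3xGrk-/- group. The same term was -1.24 for *Kynu*, -0.87 for *Haao* and -0.68 for *Wars*. These genes were chosen from these levels, so that their values are a description and no test is read from them.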

How the results depend on the processing

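The counts of called genes depended most on the spread assumed. The edgeR fits called 5369, 5754, 7561, 6945 and 4070 genes for the genotype difference without and with LPS, the LPS response of WT and of 3xGrk-/- cells, and the interaction. With a biological coefficient of variation fixed at 0.4 the counts were 448, 782, 1110, 850 and 72. Among the related genes they went from 35, 32, 43, 43 and 23 to 4, 5, 4, 7 and 0; for the last, 2 of 65 genes had an unadjusted p under 0.05, and DESeq2 called 16. Of the calls of the 5 tryptophan genes only *Kynu* (genotype, LPS) and *Ido1* (LPS response, 3xGrk-/-) remained. As these genes were chosen from their levels here, no support is read from a call that remained. DESeq2 called 2828, 3665 and 2457 genes for the genotype difference without and with LPS and the interaction, and 23 related genes without LPS. Without single libraries the counts over all genes were 4253 to 4788, 4460 to 5712, 6417 to 7601, 5844 to 7410 and 3328 to 4199, and over related genes 32 to 36, 28 to 34, 38 to 44, 36 to 47 and 21 to 26.

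Replicate numbers did not pair the samples (correlation of deviations across 8863 genes -0.0709 to 0.0828); the replicate block gave 5292, 5654, 7438, 6793 and 3884 calls, and did not call *Nampt* (genotype, LPS, 0.18). Scaled by library size only, 35.8%, 40.9%, 31.1% and 30.2% of calls in the genotype and LPS comparisons were higher, against 49.3%, 50.7%, 49.0% and 50.5% with TMM.

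The direction of some uncalled differences turned. By library size only it did for *Got2* (genotype, LPS, -0.034) and *Afmid* (LPS response, -0.077 in WT and -0.13 in 3xGrk-/- cells). Among called genes of the other lists it did so for *Grk6* (LPS response, WT) and *Dpp4* (LPS response, both genotypes), whose calls were lost. Without single libraries the values ran from -0.00092 to 0.13 for *Got2* and from -0.24 to 0.51 for *Kyat1* in the genotype difference with LPS, from -0.11 to 0.36 (WT) and -0.12 to 0.26 (3xGrk-/-) for *Afmid* and from -0.22 to 0.18 for *Gcdh* (3xGrk-/-) in the LPS response, and from -0.26 to 0.22 for *Afmid* and -0.65 to 0.11 for *Kyat1* in the interaction. The cause was not tested. Of 2519 gene values under an alternative, 2284 kept direction and call, 217 lost and 4 gained the call. No value of *Ido1*, *Kmo*, *Kynu*, *Haao* or *Wars* changed direction under these alternatives.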
